A study of Mus musculus with 4 samples.

Results

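The 9 genes described here encode surface proteins and were listed as genes that rise as pre-B cells become immature and transitional B cells. They were taken as a list of symbols, Ms4a1, Cd40, Fcer2a, Cr2, Tnfrsf13b, Tnfrsf13c, Cd37, Cd52 and Ltb, and all 9 were found among the 23284 gene symbols of each library. RNA-seq libraries came from pre-B cells of C57BL/6J bone marrow, 1 library in each of 4 groups. At steady state the groups were marrow transgenic (Tg) for the signal-transducing adaptor STAP-2 and wild-type (WT) marrow, both with the code 0901 in their titles. At 1 month after transplantation they were marrow labelled STAP-2 knockout (KO) and WT marrow, both with the code 0826. The labels give no age, sorting gate, transgene promoter, knockout design, recipient strain or number of pooled animals, so whether any recipient cells were sorted with the donor cells cannot be told. Every value is in FPKM, which scales reads to transcript length and library size, and since each group is a single library, differences were not tested and no p-value is given.

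An immature B cell first displays a complete IgM receptor and then, on its way from marrow to spleen, takes on the receptors through which it will be kept alive, helped by T cells and informed by complement. BAFF-R, encoded by Tnfrsf13c, receives the survival cytokine BAFF, and TACI, encoded by Tnfrsf13b, binds both BAFF and APRIL. CD40 receives T cell help, CD21 (Cr2) binds complement fragments on antigen, and CD23 (Fcer2a) is the low-affinity receptor for IgE. CD20 (Ms4a1), the tetraspanin CD37, the small lipid-anchored glycoprotein CD52 and lymphotoxin beta (Ltb), a membrane ligand of the TNF family, complete the set. CD37, CD52 and lymphotoxin beta are also made by T cells and other leukocytes.

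The upstream sequences of 3 of the genes are shown because they stand for the ligand, a gene among the lower ones and the one exception in the comparison of transplanted libraries described further on. They come from RefSeq's table on GRCm38.p6, which held 6 of the 9 genes (Fcer2a, Cr2, Tnfrsf13b, Tnfrsf13c, Cd37 and Ltb). They run 5′ to 3′ on the gene's strand and end before the annotated transcript start. The Ltb window is chr17:35194257-35194438 on the plus strand, the Cr2 window chr1:195176720-195176969 on the minus strand and the Tnfrsf13c window chr15:82224381-82224630 on the minus strand. Capitals mark matches to an E-box (CAGGTG or CACCTG), an RBPJ motif (TGGGAA or TTCCCA), a PU.1 motif (GAGGAA or TTCCTC) or the reverse strand of an NF-kB motif (GGG, any 2 bases, then TTTCC).
Ltb: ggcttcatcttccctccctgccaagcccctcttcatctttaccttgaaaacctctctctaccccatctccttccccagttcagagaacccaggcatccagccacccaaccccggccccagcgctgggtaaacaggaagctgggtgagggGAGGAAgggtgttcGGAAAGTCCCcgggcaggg
Cr2: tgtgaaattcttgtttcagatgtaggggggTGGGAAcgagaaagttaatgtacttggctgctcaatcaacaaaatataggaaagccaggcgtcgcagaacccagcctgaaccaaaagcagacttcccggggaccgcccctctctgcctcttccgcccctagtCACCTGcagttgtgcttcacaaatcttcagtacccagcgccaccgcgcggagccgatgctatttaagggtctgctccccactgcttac
Tnfrsf13c: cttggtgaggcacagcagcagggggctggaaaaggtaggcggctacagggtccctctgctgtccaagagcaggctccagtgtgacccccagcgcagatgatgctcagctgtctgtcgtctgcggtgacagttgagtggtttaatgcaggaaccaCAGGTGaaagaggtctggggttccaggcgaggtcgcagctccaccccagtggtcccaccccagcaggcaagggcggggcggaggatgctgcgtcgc

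Over 250 bases upstream of the RefSeq start, the E-box letters were found in 4 of the 6 genes (Cr2, Tnfrsf13c, Cd37 and Ltb), and in 17.2% of the 32851 upstream windows of the same length in the table. The Ltb E-box lies past the stretch printed above, which stops where the GENCODE annotation starts the gene, and the whole Cd37 window lies inside the gene as GENCODE annotates it. The NF-kB letters were found in Ltb alone among the 6, and in 1.41% of all windows. RBPJ letters were in Cr2 (21.6% of all windows), and PU.1 letters in Cd37 and Ltb (23.3% of all windows). Neither the octamer ATTTGCAT nor the EBF motif (TCCC, any 2 bases, then GGGA), all searched on both strands, was found in these 6 windows, against 1.6% and 0.779% of all windows. A match of letters is not a measured binding site and no match says only that the letters are not in the window.

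Depth was estimated from the steps that single reads leave in low FPKM values, and came to between 7265000 and 8725000 reads a library. Between 10511 and 10648 symbols were at 1 FPKM or more. B lineage genes were high in every library. Cd79a, a signalling chain of the B cell receptor, stood between 1624 and 1952 FPKM, and Pax5 between 287 and 334 FPKM. Stap2 itself did not check the labels. It was at 0.536 FPKM (5 estimated reads) in the Tg library and 0.212 FPKM (2 reads) in WT at steady state, and at 0.179 FPKM (2 reads) in the library labelled KO, against 0 in transplanted WT. Directions for that library therefore rest on its label.

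All 9 genes were well above 1 FPKM in each of the 4 libraries, resting on between 68 estimated reads (Tnfrsf13b) and 9113 (Ms4a1). Cd37 and Cd52 were the highest of the set, at 571 to 695 FPKM and 507 to 843 FPKM. Ms4a1, Tnfrsf13c, Ltb and Fcer2a followed, then Cd40 and Tnfrsf13b, with Cr2 lowest at 6.16 to 11.6 FPKM. The order was nearly fixed: Cd52 lay above Cd37 outside the WT steady-state library, and Ltb and Tnfrsf13c changed places between libraries. The 4 libraries themselves had a common order. Transplanted WT was the highest library for 8 of the 9 genes, against 26.5% of 11053 genes at 1 FPKM or more in any library, and steady-state WT the lowest for 7 of 9, against 22.5% of all genes.

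**Figure D1:**
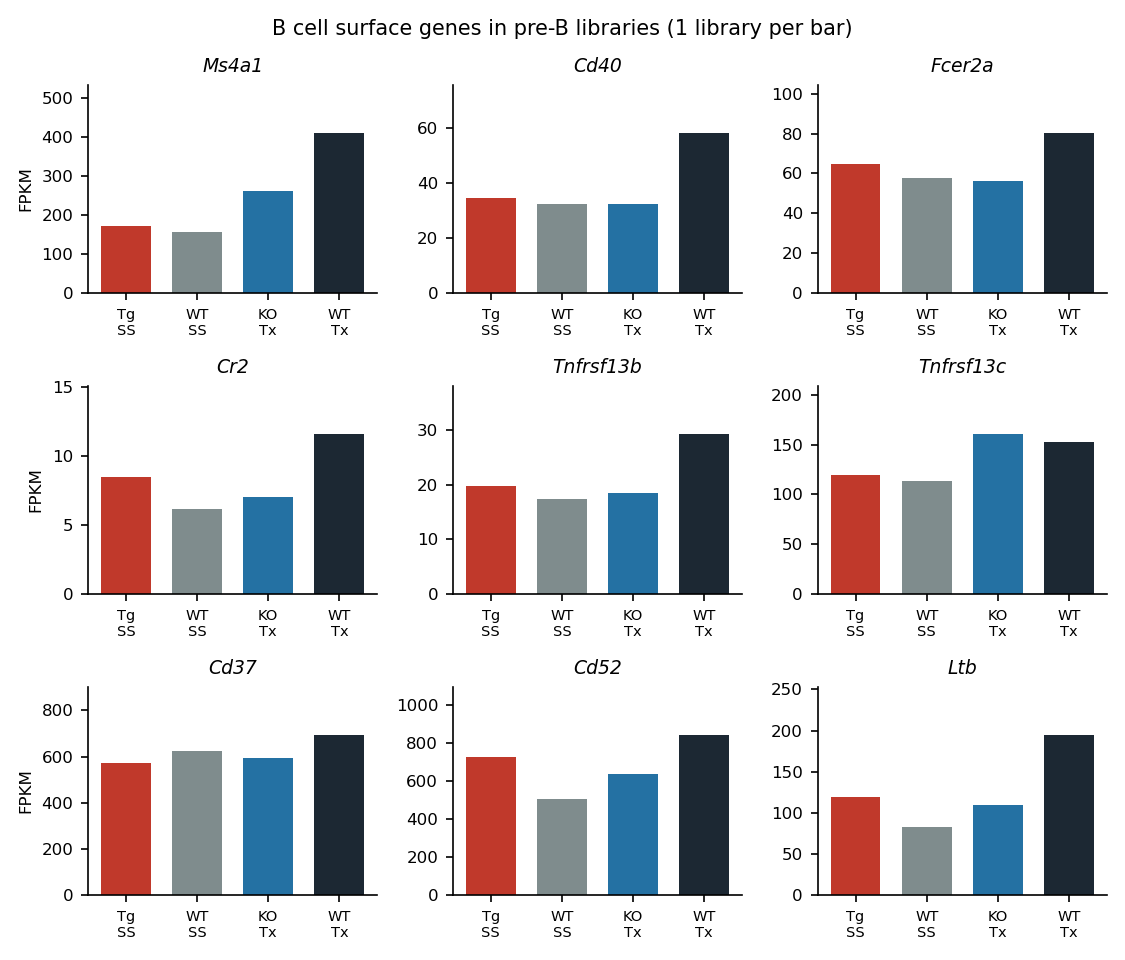
FPKM of each of the 9 genes in the 4 libraries, 1 bar per library and panels on their own linear axes (Tg, STAP-2 transgenic; KO, labelled STAP-2 knockout; SS, steady state; Tx, 1 month after transplantation). The bar of transplanted WT is the highest in 8 panels, and Tnfrsf13c, at 161 FPKM in the library labelled KO and 153 FPKM in transplanted WT, is the exception.

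The library labelled KO, set against transplanted WT, asks how loss of STAP-2 bears on pre-B cells in recovering marrow. In it 8 of the 9 surface genes were lower and Tnfrsf13c was not, and on a scale set by Cd79a and Cd79b, Cd37 was no longer lower. The median difference of the 9 was -0.64 on the log2(FPKM + 1) scale, where the median of all 10790 genes that reached 1 FPKM in one of the libraries was -0.03. Of all those genes 56.0% were lower and 44.0% higher, a split that moved to 39.2% and 60.8% when both libraries were given the same sum of FPKM. At least 1.5-fold lower on the log2(FPKM + 1) scale were 5 of the 9 genes (Ms4a1, Cd40, Cr2, Tnfrsf13b and Ltb) and 4.39% of all genes, and none of the 9 was 1.5-fold higher, as 3.76% of all genes were. With the same sum of FPKM 2 of the 9 were past 1.5-fold lower, against 342 of all 10790 genes. None of the 9 reached 2-fold, which 1.18% of all genes did downward and 0.667% upward. For the 8 lower genes the 95% interval of the plain FPKM ratio, computed from estimated reads and covering counting error only, lay wholly below 1.

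Ltb, the ligand of the set, stood at 109 FPKM in the library labelled KO and 195 FPKM in transplanted WT, a ratio of 0.559 (0.513 to 0.608). Only 1.78% of all genes tested had a lower difference. The Tg library (119 FPKM) and WT at steady state (82.4 FPKM) lay on either side of the library labelled KO, so transplanted WT was the library that stood high. Lymphotoxin alpha (Lta), with which lymphotoxin beta forms its membrane complex, was at 1.76 FPKM in the library labelled KO and 3.40 FPKM in transplanted WT. The receptor gene Ltbr, which lymphocytes generally lack, was at 0.0611 and 0.616 FPKM in these 2 libraries and under 1 FPKM at steady state too.

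Among the receptors, Cd40 was at 32.4 FPKM in the library labelled KO and 58.3 FPKM in transplanted WT (ratio 0.555, 0.443 to 0.700). The steady-state libraries had 34.5 FPKM (Tg) and 32.3 FPKM (WT), so transplanted WT again stood apart from the other 3. Tnfrsf13b, the TACI gene, followed the same course, with 18.5 FPKM in the library labelled KO and 29.3 FPKM in transplanted WT (0.631, 0.470 to 0.837). Its fellow BAFF receptor gene Tnfrsf13c was at 161 and 153 FPKM in the same 2 libraries, a ratio of 1.06 with an interval of 0.995 to 1.12 that includes 1. The pair therefore parted: Tnfrsf13c stood 8.73-fold above Tnfrsf13b in the library labelled KO and 5.22-fold in transplanted WT, with 5.99-fold in the Tg library and 6.49-fold in WT at steady state.

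The complement receptor gene Cr2 was at 7.0 FPKM in the library labelled KO and 11.6 FPKM in transplanted WT (0.603, 0.527 to 0.690). Fcer2a, the CD23 gene, was at 56.1 and 80.5 FPKM in these libraries (0.697, 0.602 to 0.810). Here the library labelled KO was close to WT at steady state (57.7 FPKM). Ms4a1, the CD20 gene, was at 263 FPKM in the library labelled KO and 412 FPKM in transplanted WT (0.637, 0.617 to 0.658). Of the 8 lower genes Ms4a1 was the one that kept most of its distance from the steady-state libraries, which held 171 FPKM (Tg) and 156 FPKM (WT). Cd52 differed less, at 635 and 843 FPKM (0.753, 0.705 to 0.805). The tetraspanin gene Cd37 differed least, at 593 and 695 FPKM (0.852, 0.820 to 0.885), and on a scale set by the sum of Cd79a and Cd79b it turned to a difference of 0.04.

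That scale matters for this comparison, because the general B lineage genes were themselves somewhat lower in the library labelled KO: Cd79a was at 1624 FPKM there and 1952 FPKM in transplanted WT, and Cd79b at 1466 and 1764. Measured against their sum, a choice made after the data were seen, 7 of the 9 genes were lower with a median of -0.38. None of the 9 was lower by 1.5-fold, against 225 of all 10790 genes. The median of all genes moved to 0.21, and 80.5% of all genes were higher. Per Cd79a, Ms4a1 stood at 0.162 in the library labelled KO and 0.211 in transplanted WT, Ltb at 0.0670 and 0.0998, and Cd37 at 0.365 and 0.356. In bulk RNA, fewer cells that express a gene and less of its RNA per cell cannot be told apart.

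**Figure D2:**
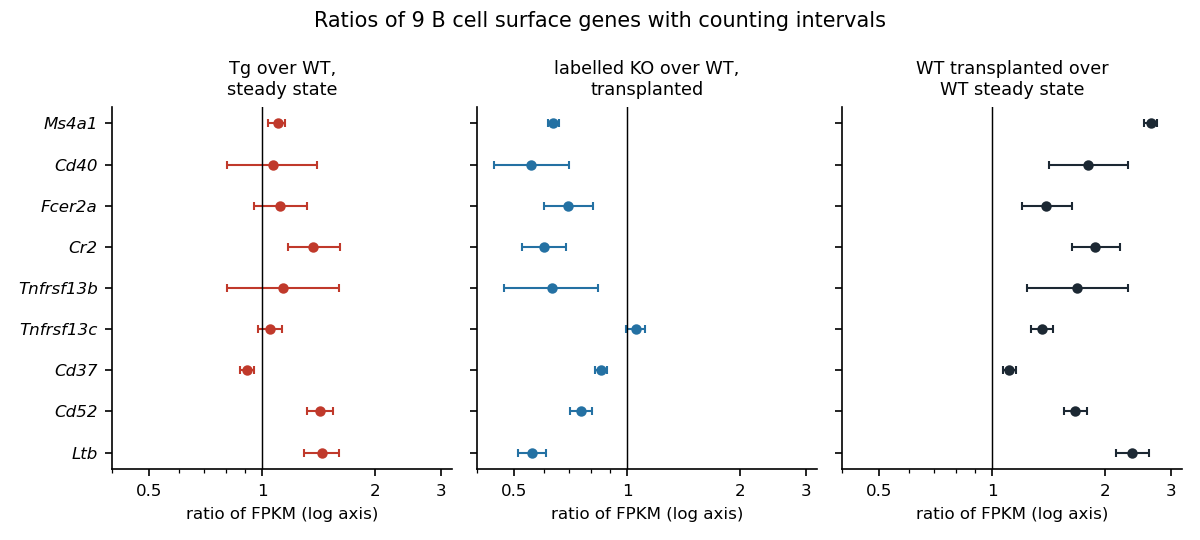
Ratio of FPKM on a log axis for each gene in 3 comparisons, each point 1 library over 1 library and each bar a 95% interval for counting error only. In the middle panel 8 intervals lie below 1 (Cd37 turned on the Cd79a and Cd79b scale) and that of Tnfrsf13c, 0.995 to 1.12, reaches it, and in the right panel all 9 lie above 1.

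The transgenic library, set against WT at steady state, asks what added STAP-2 does without transplantation. Differences of the 9 genes were small here. They were higher in the Tg library for 8 of 9, where 46.7% of all 10843 genes were higher and 53.3% lower, and their median was 0.16 against -0.02 over all genes. None reached 1.5-fold, which 3.81% of all genes did upward and 2.31% downward, or 2-fold, which 1.22% did upward and 0.682% downward. When both libraries were rescaled to the same sum of FPKM, Cd40 and Tnfrsf13c joined Cd37 below 0, leaving 6 higher at a median of 0.05, and 28.6% of all genes were then higher. On the Cd79a and Cd79b scale 61.7% of all genes were higher, with 8 of the 9. Cd52 and Ltb were then past 1.5-fold, against 529 of all 10843 genes.

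Ltb was at 119 FPKM in the Tg library and 82.4 FPKM in WT (ratio 1.44, 1.29 to 1.60). Cd52 was at 723 and 507 FPKM (1.43, 1.32 to 1.54), and Cr2 at 8.46 and 6.16 FPKM (1.37, 1.17 to 1.61). These 3 had the clearest differences of the set in this pair of libraries, with 92.2% to 95.1% of all genes below each. Ms4a1 differed by a ratio of 1.10 (1.04 to 1.15), and the intervals of Cd40 (1.07, 0.808 to 1.40), Fcer2a (1.12, 0.954 to 1.32), Tnfrsf13b (1.14, 0.808 to 1.60) and Tnfrsf13c (1.05, 0.978 to 1.13) all included 1. At the reads estimated for those 4 genes, which depend on the transcript length used, a change was not detectable. A difference of up to the upper bounds given would be compatible with the estimated counts. Cd37 was the one gene on the other side, at 571 FPKM in the Tg library and 624 FPKM in WT (0.914, 0.876 to 0.953).

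Transplanted WT, set against WT at steady state, compares the same genotype, but transplantation and the title code changed together and cannot be told apart. All 9 genes were higher after transplantation, under each of the scalings tried as well, where 45.9% of all 10835 genes were higher and 54.1% lower (31.2% and 68.8% with the same sum of FPKM). The median was 0.73, against -0.02 over all genes. At least 1.5-fold higher values were found in 6 of the 9 and in 5.20% of all genes, and at least 2-fold higher values in 2 of the 9, Ms4a1 and Ltb, and in 1.67% of all genes. None of the 9 was 1.5-fold or 2-fold lower, as 2.28% and 0.628% of all genes were. This comparison shares the transplanted WT library with that of the library labelled KO, where it is the reference. A high or low value in transplanted WT can thus set opposite values in both. Steady-state WT is the reference here and in the comparison of the Tg library, so it can set values of the same sign in both.

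Ms4a1 was at 412 FPKM in transplanted WT and 156 FPKM in steady-state WT, a ratio of 2.64 (2.54 to 2.75), with 99.3% of all genes below it. Ltb followed at 195 and 82.4 FPKM (2.36, 2.14 to 2.61). Between 1.5-fold and 2-fold lay Cr2 (ratio 1.88, 1.63 to 2.19), Cd40 (1.80, 1.42 to 2.30), Tnfrsf13b (1.68, 1.24 to 2.30) and Cd52 (1.66, 1.55 to 1.79). Fcer2a (1.39, 1.20 to 1.63) and Tnfrsf13c (1.36, 1.27 to 1.45) differed less, and Cd37 barely, at 695 and 624 FPKM (1.11, 1.07 to 1.16). Relative to Ms4a1, Cd37 thus stood at 1.69 in transplanted WT and 3.99 in steady-state WT.

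**Figure D3:**
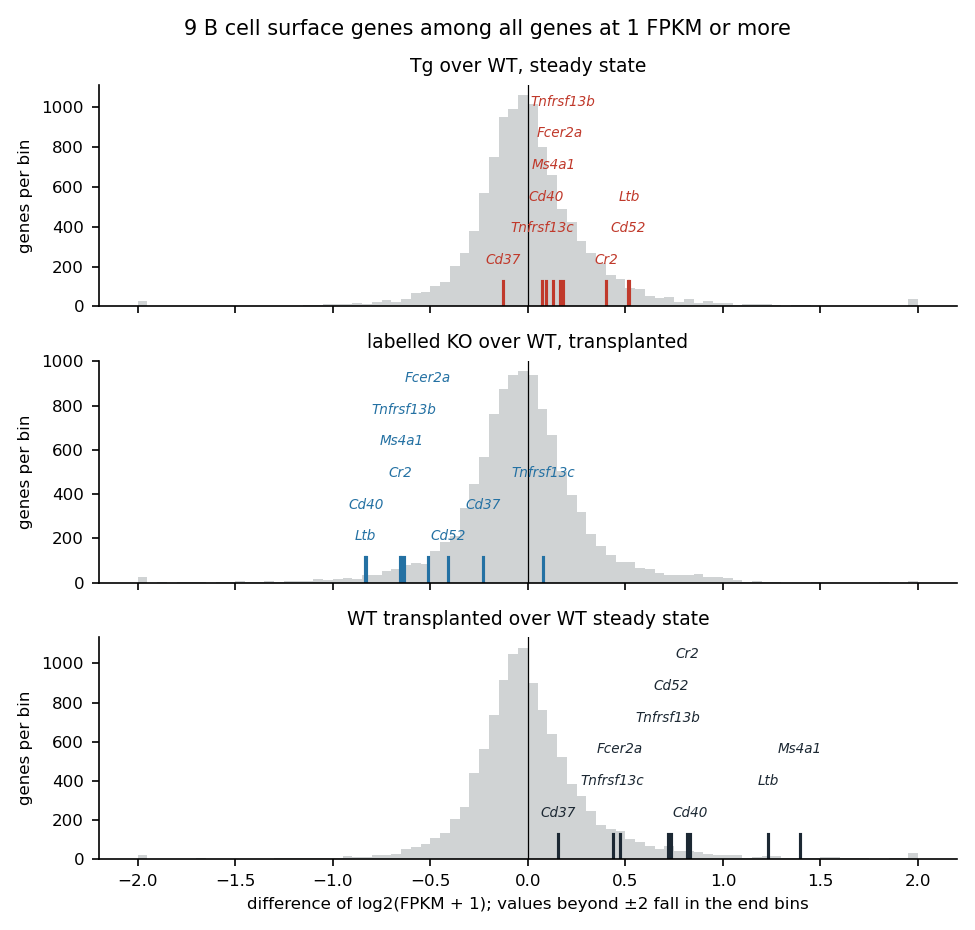
Histogram of the differences of all genes that reached 1 FPKM in one of the libraries (grey, genes per bin of 0.05), with the 9 genes marked by lines, on the log2(FPKM + 1) scale. Most marks lie to the right for transplanted over steady-state WT (median 0.73) and to the left for the library labelled KO over transplanted WT (median -0.64). Cd37 lies within the bulk in both, at 0.16 and -0.23, as does Tnfrsf13c for the library labelled KO, and for Tg over WT the median is 0.16.

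A wider list of 36 genes of B cell maturation, with receptors and regulators beyond the 9, was read in the same way. In the library labelled KO 30 of the 36 were lower than in transplanted WT (56.0% of all genes). Past 1.5-fold lower were 11 (4.39% of all genes), and the median was -0.41. On the Cd79a and Cd79b scale 22 were lower, 2 of these past 1.5-fold, at a median of -0.15. Of all 10790 genes 19.5% were then lower, 225 of them past 1.5-fold. The lowest by the naming rule were Cd69, an early activation marker (61.3 and 184 FPKM), Fcer1g, an Fc receptor chain typical of myeloid cells (4.86 and 13.8), S1pr1, the receptor that guides lymphocytes out of tissues (43.7 and 77.5), and Cd200, an inhibitory surface glycoprotein (8.55 and 15.1). Other members on the side of the 9 genes, named after their values were seen, were Faim3, the Fc receptor for IgM (238 FPKM in the library labelled KO and 401 in transplanted WT), the homing receptor gene Ccr7 (68.2 and 109) and the inhibitory co-receptor gene Cd22 (128 and 190). Cd72, another inhibitory co-receptor, was at 720 and 676 FPKM, and Cd38 at 146 and 151. In the Tg library 22 of the 36 were higher than in WT (46.7% of all genes), 4 past 1.5-fold (3.81%), and the median was 0.01. On the scale of equal sums 12 were higher (28.6% of all genes). The genes furthest apart were Fcer1g (10.7 and 4.85 FPKM), Cd69 (88.8 and 175), the T cell co-stimulatory ligand gene Cd86 (6.49 and 3.28) and the activation marker gene Cd83 (34.1 and 20.0). In transplanted WT 23 were higher than in steady-state WT (45.9% of all genes), and 18 on the scale of equal sums (31.2%). As reported 8 were past 1.5-fold (5.20% of all genes). Among them were Fcer1g (13.8 and 4.85 FPKM), Cd83 (43.3 and 20.0), Faim3 (401 and 195) and Cd200 (15.1 and 7.01).

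The genes that pass on signals from BAFF, APRIL and CD40 were read as a further list. Of 17 measured in the library labelled KO or transplanted WT, 15 were lower in the library labelled KO (56.0% of all genes). None was past 1.5-fold (4.39% of all genes), and the median was -0.18. On the Cd79a and Cd79b scale 13 of the 17 were higher, as were 80.5% of all genes. Nfkb2, the precursor of the non-canonical NF-kB subunit, was at 78.0 FPKM in the library labelled KO and 98.6 in transplanted WT, and Traf3, an adaptor that restrains that pathway, at 18.5 and 23.1. Ikbkb, a kinase subunit of the canonical branch, was at 49.3 and 59.3, and Traf1 at 0.978 and 1.64. In the Tg library 11 of 18 were higher than in WT (46.7% of all genes), and 5 with the same sum of FPKM (28.6% of all genes). Traf1 was at 3.31 FPKM in the Tg library and 1.10 in WT at steady state, and Nfkb2 at 82.6 and 63.4. In transplanted WT 11 of 18 were higher than in steady-state WT (45.9% of all genes), and 9 with the same sum (31.2% of all genes). The ligand genes were near the detection limit: Tnfsf13b, the gene of BAFF, was at 0.369 FPKM or less in the 4 libraries and Cd40lg was listed at 0 in each of them. Tnfrsf17, the third BAFF family receptor and a plasma cell gene, was at 1.59 FPKM in the Tg library and 3.61 in WT at steady state, and at 0.191 FPKM in the library labelled KO and 0.427 in transplanted WT.

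Partners of CD21 and CD23 did not move as one body with them. Of 11 genes, Fcer2a among them, 8 were lower in the library labelled KO (56.0% of all genes), 2 past 1.5-fold (4.39%). The median was -0.35. On the Cd79a and Cd79b scale 6 were lower (19.5% of all genes). Cd55, a complement regulator, was at 74.5 FPKM in the library labelled KO and 125 in transplanted WT, and Ifitm3, an interferon-induced membrane protein gene, at 7.85 and 13.2. Notch2, the receptor through which marginal zone B cells arise, was at 20.8 and 28.3. By contrast Cd81, a tetraspanin gene, was at 66.3 and 64.7 FPKM in these libraries. Adam10, the protease that sheds CD23, was at 92.8 FPKM in transplanted WT and 137 in steady-state WT. In the Tg library 6 of the 11 were higher than in WT (46.7% of all genes). With the same sum of FPKM 3 were higher (28.6% of all genes), and on the Cd79a and Cd79b scale 8 (61.7% of all genes). In transplanted WT 7 were higher than in steady-state WT (45.9% of all genes) at a median of 0.15.

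The TNF family genes other than Ltb were few and low. Of 7 measured in the library labelled KO or transplanted WT, 5 were lower in the library labelled KO (56.0% of all genes). On the Cd79a and Cd79b scale 4 were lower (19.5% of all genes), 2 past 1.5-fold (225 of all 10790 genes). As reported 3 were past 1.5-fold lower (4.39% of all genes). These were the death receptor gene Fas (1.26 and 2.88 FPKM), the TNF receptor gene Tnfrsf1a (0.827 and 2.05) and Lta. Tnf lay the other way, at 1.14 and 0.457 FPKM.

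**Figure D4:**
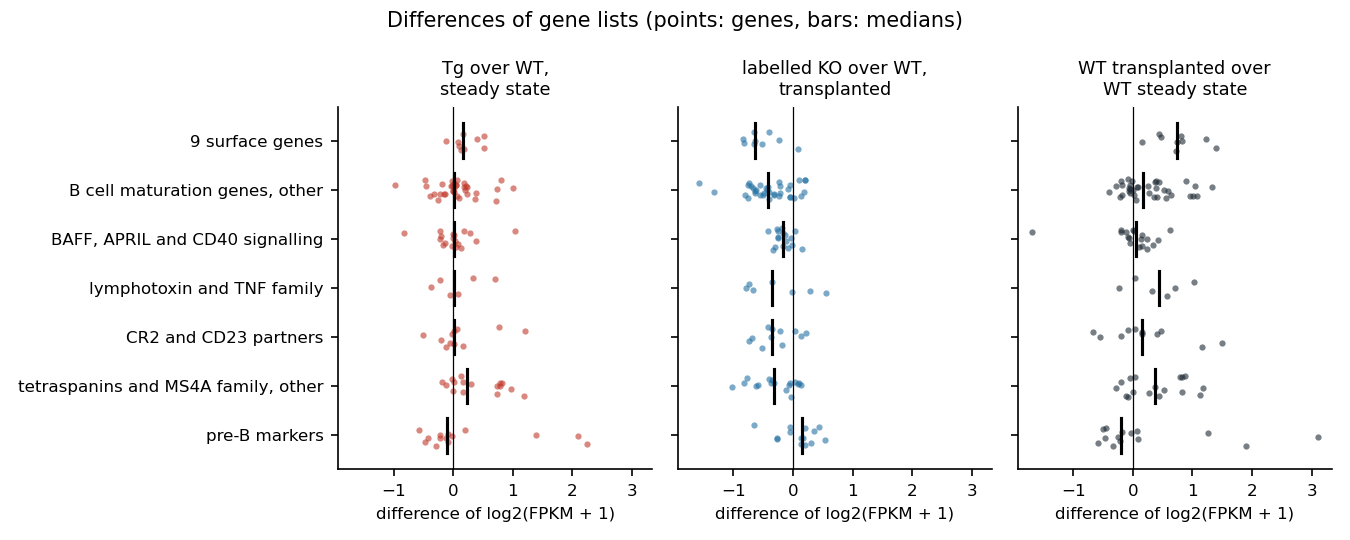
Differences on the log2(FPKM + 1) scale for the genes of 7 lists in 3 comparisons, each point a gene that reached 1 FPKM in one of the libraries and each black bar the list's median. In the middle panel the bars lie at -0.64 for the 9 surface genes and -0.41 for the other maturation genes. For BAFF, APRIL and CD40 signalling the bar lies at -0.18, and for pre-B markers at 0.15. On the Cd79a and Cd79b scale the signalling median was 0.08, where the median of all genes was 0.21.

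The medians of the pre-B markers lay on the other side of 0 from those of the surface genes, though single markers differed. Of 14 pre-B markers, 9 were higher in the library labelled KO than in transplanted WT (44.0% of all genes) at a median of 0.15. In the Tg library 10 were lower than in WT (53.3% of all genes) at a median of -0.10. In transplanted WT 9 were lower than in steady-state WT (54.1% of all genes), with a median of -0.20. On the Cd79a and Cd79b scale these medians were 0.41, -0.02 and -0.28, against 0.21, 0.06 and -0.10 over all genes. The surrogate light chain genes, which mark the large pre-B stage, were low in the steady-state WT library against each of the other 3. Vpreb1 was at 34.4 FPKM in the Tg library, 7.31 in WT at steady state, 38.6 in the library labelled KO and 30.2 in transplanted WT. Igll1 was at 39.9, 14.6, 49.7 and 36.4 FPKM in these libraries, and Vpreb2 at 3.74, 0, 8.86 and 7.59 FPKM. They were thus higher with the surface genes in transplanted over steady-state WT and in Tg over WT, and not lower with them in the library labelled KO. Il7r, the receptor gene that supports growth of early B cells, was at 256 FPKM in the library labelled KO and 176 in transplanted WT, whereas the recombinase gene Rag1 was at 286 and 453. The difference between the 14 markers and the 9 surface genes was not tested. Of 9 measured markers of pro-B and earlier cells, 6 were higher in the library labelled KO (44.0% of all genes). In the Tg library 6 were higher (46.7% of all genes), and in transplanted WT 5 (45.9%). The medians were 0.21, 0.20 and 0.23. The lists overlap: Il7r, Igll1 and Vpreb1 are also among the 14 pre-B markers, and all were higher in the labelled KO and Tg libraries. Vpreb3, Blnk and Ly6d are also in the maturation list.

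Markers of other cell types moved with the surface genes in part. All 21 neutrophil and monocyte markers were higher in transplanted WT than in steady-state WT (45.9% of all genes), at a median of 1.06. In the library labelled KO 20 of the 21 were lower than in transplanted WT (56.0% of all genes), at -1.10. In the Tg library 18 of 19 measured were higher than in WT (46.7% of all genes), at 1.15. The summed level of the 21 was 1934 FPKM in the Tg library and 825 in WT at steady state. It was 708 FPKM in the library labelled KO and 1812 in transplanted WT, and none of the 21 was at 0 in any library. These sums were close in the Tg library and transplanted WT, but single markers differed in both directions. C1qa was at 3.46 FPKM in the Tg library and 7.08 in transplanted WT. Retnlg lay further above steady-state WT in the Tg library (2.014 on the log2(FPKM + 1) scale) than in transplanted WT (1.245). For T and NK cells the sums of 16 genes were 189 (Tg), 226 (WT, steady state), 154 (labelled KO) and 216 FPKM (WT, transplanted), most of it Cd2, which B lineage cells of the mouse also express, while Cd3e was between 0.444 and 0.562 FPKM and the NK receptor gene Ncr1 at 0.109 FPKM or below. Of the T and NK genes 5 reached 1 FPKM in one of the transplanted libraries. All 5 were lower in the library labelled KO (56.0% of all genes), at a median of -0.43. On the Cd79a and Cd79b scale 4 of them were lower (19.5% of all genes). Nkg7, a gene of cytotoxic granules, was at 1.90 FPKM in the library labelled KO and 6.39 in transplanted WT, with 2.50 in the Tg library and 2.25 in WT at steady state. Cd5 was at 0.927 FPKM in the library labelled KO and 1.59 in transplanted WT, with 0.961 in the Tg library and 0.513 in WT at steady state. Dendritic cell markers (12 genes) summed to 224 (Tg), 197 (WT, steady state), 238 (labelled KO) and 268 FPKM (WT, transplanted), most of it in Irf8, Bst2, Tcf4 and Ly6c2, which other cells express, and Clec9a was at 0 in the Tg, steady-state WT and labelled KO libraries. Plasma cell markers (9 genes) summed to 556 (Tg), 771 (WT, steady state), 410 (labelled KO) and 351 FPKM (WT, transplanted). Erythroid and megakaryocyte markers (12 genes) summed to 124, 166, 114 and 101 FPKM in these libraries. Both sums were lowest in transplanted WT. Most of the second sum was Tfrc in the library labelled KO (104 FPKM) and in transplanted WT (93.0 FPKM). By gene, the library labelled KO was lowest for 4 of 9 plasma cell markers (30.6% of all genes). It was also lowest for 4 of the 7 erythroid and megakaryocyte markers that reached 1 FPKM. Transplanted WT was lowest for 3 and 1 of these (24.6% of all genes). The part of these cells in the differences of the surface genes was not tested.

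**Figure D5:**
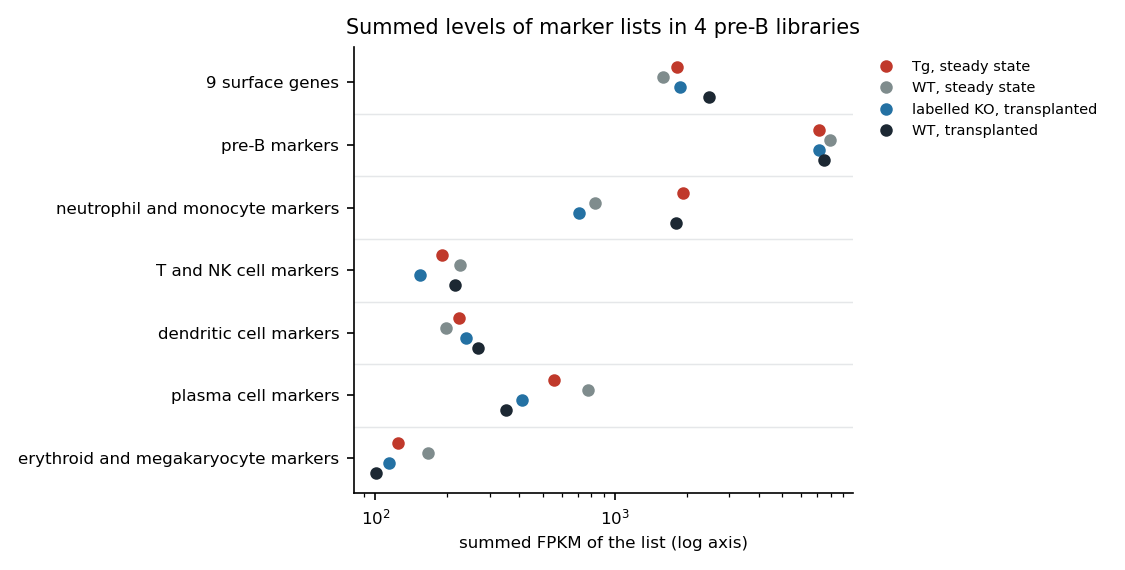
Summed FPKM, on a log axis, of the 9 surface genes and of 6 marker lists in each of the 4 libraries. The surface genes sum to 1829 (Tg), 1596 (WT, steady state), 1875 (labelled KO) and 2478 FPKM (WT, transplanted), and the neutrophil and monocyte markers are high in both the Tg library and transplanted WT.

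Several genes outside the set had nearly the same profile over the 4 libraries. Likeness was measured as the Euclidean distance between centred log2(FPKM + 1) values and the mean centred profile of the 9 genes, which was -0.09 (Tg), -0.30 (WT, steady state), -0.07 (labelled KO) and 0.45 (WT, transplanted). Among 8497 other genes at 5 FPKM or more on average, the 5 nearest were 4930572J05Rik (distance 0.022), Gga2 (0.023), Nsdhl (0.056), Hspb11 (0.060) and Setdb2 (0.064). Gga2, the gene of a Golgi sorting adaptor, was at 33.5 FPKM in the Tg library, 28.5 in WT at steady state, 33.9 in the library labelled KO and 48.1 in transplanted WT. With 4 libraries such a match is a description of these libraries only.

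In GRCm38 each of the 9 genes lies on a chromosome of its own: Cr2 on 1, Cd40 on 2, Cd52 on 4, Cd37 on 7, Fcer2a on 8, Tnfrsf13b on 11, Tnfrsf13c on 15, Ltb on 17 and Ms4a1 on 19. Genes on the opposite strand overlap 4 of them. The antisense gene 4930526L06Rik overlaps Ms4a1 over 16567 bases and Crybg2 overlaps Cd52 over 10057 bases, while Tead2 overlaps Cd37 over 13 bases and the pseudogene Gm12269 overlaps Tnfrsf13b over 717 bases. The library kit keeps strand, but no source used here says whether the counting used it, so reads of such partners may be included. Ms4a1 lies at chromosome 19, 11249675 to 11266241, Ltb at chromosome 17, 35194439 to 35196320, and Tnfrsf13c at chromosome 15, 82221743 to 82224369.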

How the data were processed

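Pre-B cell RNA extraction used a miRNeasy kit, and the sequencing libraries a TruSeq stranded mRNA kit, per the labels' protocols. TopHat2 2.0.13, Bowtie2 2.2.3, SAMtools 0.1.19, Cufflinks 2.2.1 and mm10 are named in the submitters' processing notes. No source used here gives their roles, the annotation or filters. What the authors deposited was read as FPKM because the values are not whole and Cufflinks is named; the headers name no unit.

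Depth was estimated from 2577 protein-coding genes with 1 annotated transcript, taking FPKM times transcript length minus 220 nt (the offset that gave the clearest steps). Of the 293 to 321 values of 0.5 to 6.5 reads in each library, 72.3% to 75.4% lay no more than 0.1 from a whole number of reads (20% if values fell anywhere), a share partly built in by the fit. Reads of genes with several transcripts used the shortest GENCODE M21 transcript with a RefSeq accession, so they are approximate and their intervals rather wide. Of 23284 symbols, 20911 matched GENCODE M21. Ratios carry 95% exact Clopper-Pearson intervals, which cover counting error only.

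Differences are log2(FPKM + 1) of one library minus another, which understates low genes, for genes that reached 1 FPKM in one of them. With 1 library a group no test was made. The 9 genes and the lists were chosen with earlier results of these data known. In addition to the genes counted, these lists had a member that is not reported here. Of each list the rule named up to 4 genes with the largest difference per comparison; other list genes were named after their values were seen. Alternatives changed the pseudocount, the filter and the scaling. The depth and fold steps were tested on simulated data. Python 3.11.15, numpy 2.4.6, pandas 2.3.3, scipy 1.17.1 and matplotlib 3.10.9 were used.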

Additional observations from a re-analysis of the deposited data

How the results depend on the processing

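Other filters and pseudocounts, and scaling to the median gene ratio, to the upper quartile or without the 100 highest genes left the counts and medians of the 9 genes within 1.5 times or within counting error. Rescaling to the same sum of FPKM moved the median of all genes to -0.13 for Tg minus WT and -0.12 for transplanted minus steady-state WT. With it 3 of the 9 genes were lower in the Tg library (71.4% of all genes). In the library labelled KO 2 of the 9 were at least 1.5-fold lower (342 of all 10790 genes). The median of the 9 for transplanted over steady-state WT was 0.63. Scaling by the sum of Cd79a and Cd79b, chosen after seeing the data, gave 2 of the 9 at least 1.5-fold higher in the Tg library (529 of all 10843 genes). For the library labelled KO it gave 2 of the 9 higher (80.5% of all genes), Cd37 at a difference of 0.04. At least 1.5-fold lower were 0 of the 9 and 225 of all 10790 genes. Counts over all genes ranged more widely. With a pseudocount of 0.1, 624 of all genes were 1.5-fold higher in the Tg library, against 413. At 5 FPKM or more there were 209, and with no filter 473. A smaller pseudocount shrinks the differences of low genes less, and a filter changes which low genes are counted. No paired analysis was possible because each group has 1 library. Estimated reads were fewest for Tnfrsf13b (68 to 120) and Cd40 (107 to 202). They rest on the transcript lengths used, 750 and 668 nt, where the longest transcripts have 2556 and 2986 nt.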

Other observations

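A pair of small gene families next to the surface genes were read as well. Of the tetraspanin and MS4A genes beyond Cd37 and Ms4a1, 16 were measured at steady state. In the Tg library 13 of these were higher than in WT (46.7% of all genes), at a median of 0.23, and 7 past 1.5-fold (3.81%). With the same sum of FPKM 11 of the 16 were higher (28.6% of all genes). In the library labelled KO 13 of 17 were lower than in transplanted WT (56.0% of all genes), 5 past 1.5-fold (4.39%). The median was -0.32. On the Cd79a and Cd79b scale 9 of the 17 were lower (19.5% of all genes). The lymphoid tetraspanin gene Cd53 was at 136 FPKM in the library labelled KO and 176 in transplanted WT. Ms4a4c, which shares the four-span fold of CD20, was at 23.2 FPKM in the Tg library and 13.1 in WT, and at 19.1 in the library labelled KO and 29.9 in transplanted WT. Ms4a3, a gene of granulocyte and monocyte progenitors, was at 4.28 FPKM in the Tg library and 1.70 in WT, and at 2.0 in the library labelled KO and 5.13 in transplanted WT, as the neutrophil and monocyte markers were. Tspan31 was at 10.8 FPKM in the Tg library and 4.19 in WT, the largest difference of the list in that pair. Cd82 and Tspan13 differed little, at 32.1 to 42.8 and 106 to 124 FPKM over the libraries.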
